A study of Mus musculus with 6 samples.

Results

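The 10 genes described here lie at either end of the BCR-ABL pathway in long-term stem cells of chronic myelogenous leukemia (CML): the fusion partner genes *Bcr* and *Abl1*, the adaptor gene *Crkl*, the transcription factor genes *Stat5a* and *Stat5b*, the feedback inhibitor genes *Cish*, *Socs2* and *Socs3*, the kinase gene *Pim1* and the cytokine gene *Osm*. Their rows were taken from the table by symbol. The 10 genes took 11 of the 36976 rows of the table, because a short pseudogene inside *Abl1* carries the same symbol. All 10 passed the filter on low values.

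The cells came from bone marrow of C57BL/6 mice that carried both SCL-tTA and TRE-BCR-ABL1, a tetracycline-controlled human BCR-ABL1 transgene switched on in stem and progenitor cells when doxycycline is withdrawn. Mice of both genotypes were diseased and were taken 5 weeks after induction. *Gdpd3*+/+ mice had an intact *Gdpd3*, a lysophospholipase D gene. In *Gdpd3*-/- mice the gene was disrupted by a germline deletion of 5 bp early in its coding sequence, made by genome editing. Total RNA of sorted CD150+CD48-CD135- LSK cells was sequenced as 3 *Gdpd3*+/+ libraries (replicates 1, 2 and 3; 22 male and 12 female mice in the group) and 3 *Gdpd3*-/- libraries (replicates 5, 6 and 7; 5 males and 5 females). The labels do not say which mice went into which library. Sex was not set against the values, and p-values measure the spread between these libraries. There was no group without BCR-ABL1 or without leukemia.

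BCR-ABL is a constitutively active tyrosine kinase. It binds and phosphorylates adaptors such as CRKL and leads to phosphorylation of STAT5, which enters the nucleus and activates genes that include *Cish*, *Socs2*, *Socs3*, *Pim1* and *Osm*. The CIS and SOCS proteins bind cytokine receptors or JAK kinases and close a negative feedback loop. Since STAT5 is controlled by phosphorylation, the mRNA level of *Stat5a* or *Stat5b* is not a measure of its activity.

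None of the 10 genes passed the test between genotypes. The log2 fold change (*Gdpd3*-/- over *Gdpd3*+/+, on log2(FPKM + 0.1), limma) was above 0 for 10 of 10 genes, and so it was for 65.1% of all 24689 genes tested. Its median was 0.27 over the 10 genes, 0.24 over all genes and 0.14 over the 15103 genes with a mean of at least 1 FPKM. With adjusted p under 0.05 (Benjamini-Hochberg over all genes tested), 0 of 10 genes were called in either direction, against a background of 1.71%. At an unadjusted p under 0.05 the count was 1 of 10, *Socs3*, against 22.2% of all genes. This count was 0 without *Gdpd3*+/+ library 1 or without *Gdpd3*-/- library 5, and 4 without *Gdpd3*-/- library 6. The 22.2% belongs to the fit of all libraries, and no share of all genes was taken for these refits. In 5 genes (*Bcr*, *Abl1*, *Crkl*, *Cish* and *Socs3*) every *Gdpd3*-/- library was above every *Gdpd3*+/+ library, which was so for 23.5% of all genes and for 28.2% of those with a mean of at least 1 FPKM. No gene was lower without overlap, against 8.27% of all genes. All 10 genes had a mean of at least 1 FPKM, and among genes with such a mean the backgrounds were 2.44% called (1.58% higher and 0.854% lower), 29.5% at an unadjusted p under 0.05, 10.2% lower without overlap and 61.5% with a log2 fold change above 0.

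FPKM is a level per length of transcript and per total of the library, and its scale bears on these counts. After rescaling by trimmed mean of M-values (TMM), which moved the median of all genes to 0.04, the genotypes overlapped in all 10 genes, whereas 14.1% of all genes were then higher without overlap; *Stat5a*, *Stat5b*, *Pim1* and *Osm* were below 0.

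**Figure D1:**
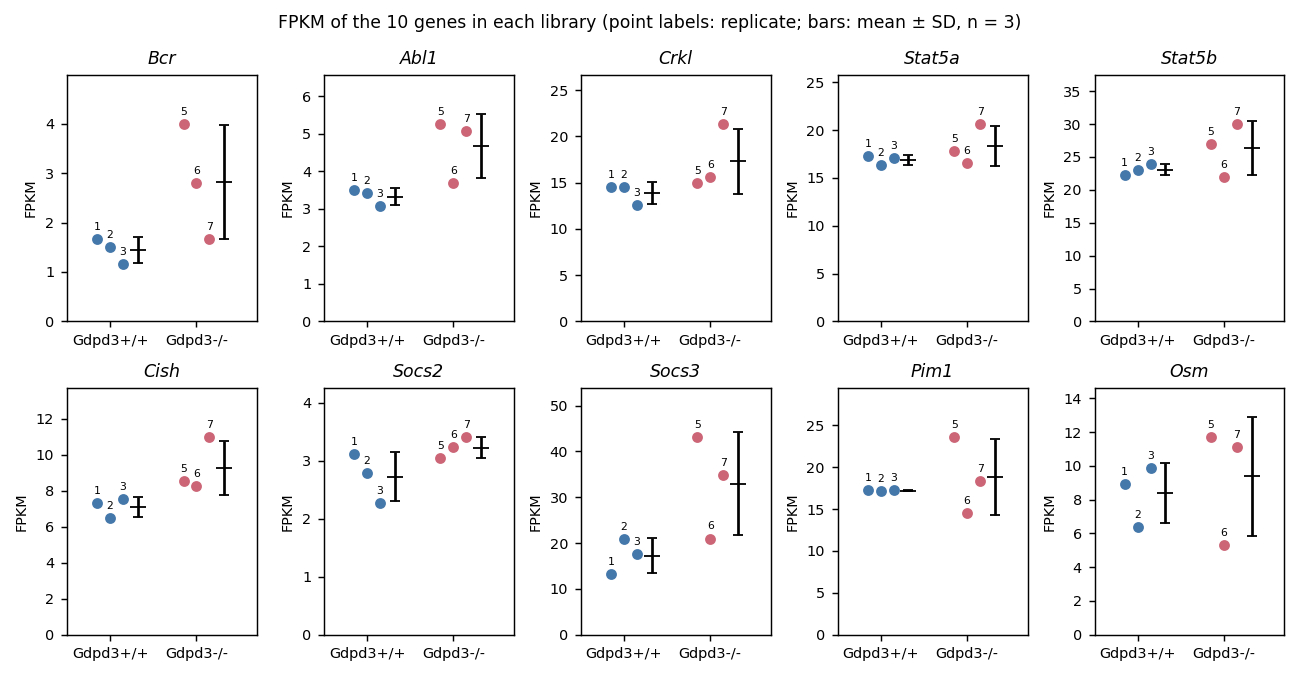
FPKM of each of the 10 genes by library. Each panel has its own axis from 0; points are libraries numbered by replicate, and the bar beside each group is mean ± SD (n = 3). The *Gdpd3*+/+ points lie close together for *Pim1* and *Stat5a*, while the *Gdpd3*-/- points of *Bcr*, *Socs3* and *Osm* are far apart.

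Depth and cell markers differed between the genotypes. Depth recovered from the FPKM steps was 4.98 to 6.28 gigabases in *Gdpd3*+/+ libraries and 2.13 to 3.64 in *Gdpd3*-/- libraries. At 150 bases a read, this puts between 183 and 5407 reads on each of the 10 genes in a library. *Gdpd3* itself was at 7.30, 3.29 and 2.95 FPKM in *Gdpd3*+/+ libraries and 0.110, 0.0129 and 0.681 in *Gdpd3*-/- libraries, with no overlap (adjusted p = 0.0588, limma). Summed FPKM of 10 skeletal muscle genes ran from 719 to 1081 in *Gdpd3*+/+ and from 1772 to 13553 in *Gdpd3*-/- libraries, all 10 higher without overlap. Summed FPKM of 10 neutrophil genes ran from 29072 to 31961 and from 8086 to 13681, with 9 of 10 lower without overlap. *Flt3*, which encodes CD135 and was sorted against, was at 11.0, 10.6 and 9.80 FPKM in *Gdpd3*+/+ and 46.5, 37.8 and 36.8 in *Gdpd3*-/- libraries (adjusted p = 0.00562, limma). *Cd48*, also sorted against, was at 39.8, 41.2 and 44.8 FPKM against 51.6, 54.0 and 92.2. The lineage marker gene *Itgam* was at 22.3, 20.6 and 19.3 FPKM against 13.4, 1.69 and 8.43. Neither *Cd48* nor *Itgam* passed the test, and the other 4 of the 7 genes listed as sorted against overlapped. Among these 4, *Ptprc* (54.4, 48.2 and 51.6 FPKM against 36.9, 47.3 and 50.4) stands for every form of CD45. Only its B220 form was sorted against, and FPKM per gene does not separate the forms. Sums of genes sorted for (*Kit*, *Ly6a*, *Slamf1*) overlapped, from 477 to 551 and from 481 to 677. No listed marker with a row was at 0 in every library. A row was found for 6 of 7 listed monocyte genes and 5 of 6 listed B and plasma cell genes. The part of other cells in the results on the 10 genes was not tested, and in bulk RNA fewer cells of a type and less RNA per cell cannot be told apart.

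*Bcr* (ENSMUSG00000009681.8, chr10:74523641-74647668, mm9) encodes a protein with a coiled coil that makes the fusion kinase oligomerize. It was at 1.66, 1.51 and 1.16 FPKM in *Gdpd3*+/+ libraries 1, 2 and 3 and at 3.99, 2.80 and 1.67 in *Gdpd3*-/- libraries 5, 6 and 7. Library 7 stood beside the highest *Gdpd3*+/+ library, while 5 and 6 were clearly above. Means were 1.44 ± 0.259 and 2.82 ± 1.16 FPKM (SD, n = 3 each), a log2 fold change of 0.85 (SE 0.37, 95% interval -0.03 to 1.74; adjusted p = 0.237). Libraries 5 and 6 were also those with the most muscle RNA, with summed muscle FPKM of 9402 and 13553 against 1772 in library 7. Between libraries 5 and 6 the order was reversed: library 6 had more muscle RNA and less *Bcr*. Whether muscle RNA had a part in the *Bcr* values was not tested. With library 7 alone on the *Gdpd3*-/- side, a choice made after the values were seen, the log2 fold change of *Bcr* was 0.21. In the same comparison the log2 fold changes of *Abl1* (0.60), *Crkl* (0.62), *Stat5a* (0.29), *Stat5b* (0.38), *Cish* (0.63), *Socs2* (0.32), *Socs3* (1.04) and *Osm* (0.42) were larger than with all libraries, and that of *Pim1* was 0.093. Library 7 also had the fewest *Bcr* reads, 183, so its *Bcr* value is the least precise.

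*Abl1* (ENSMUSG00000026842.9, chr2:31543896-31659747, mm9) encodes the tyrosine kinase part of the fusion. Its level was 3.50, 3.42 and 3.07 FPKM in *Gdpd3*+/+ libraries and 5.26, 3.70 and 5.09 in *Gdpd3*-/- libraries. Library 6 was nearest to the *Gdpd3*+/+ range, and no library crossed. The means of 3.33 ± 0.231 and 4.68 ± 0.858 FPKM (SD, n = 3 each) gave a log2 fold change of 0.47 (SE 0.21, 95% interval -0.04 to 0.97; adjusted p = 0.251). The second *Abl1* row (ENSMUSG00000090901.1, a pseudogene of 486 bases, all inside *Abl1* exons on the same strand) was at 6.78, 7.34 and 5.89 FPKM against 14.3, 6.69 and 11.9, and here library 6 fell within the *Gdpd3*+/+ range. Another 94 bases are shared with Gm13427 on the opposite strand. Reads in shared bases cannot be assigned to one row or the other with certainty. Nor can reads of the human transgene that align to mouse *Bcr* or *Abl1* be told apart from the mouse transcripts in gene-level values, so neither row measures BCR-ABL1 itself.

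*Crkl* (ENSMUSG00000006134.3, chr16:17452080-17486348, mm9) encodes an SH2-SH3 adaptor that is a direct substrate of BCR-ABL. Expression was 14.5, 14.5 and 12.5 FPKM in *Gdpd3*+/+ libraries and 14.9, 15.6 and 21.3 in *Gdpd3*-/- libraries. Libraries 5 and 6 were just above the *Gdpd3*+/+ range and library 7 stood well above it. From 13.9 ± 1.16 to 17.3 ± 3.52 FPKM (SD, n = 3 each), the log2 fold change was 0.30 (SE 0.17, 95% interval -0.10 to 0.70; adjusted p = 0.340).

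*Stat5a* (ENSMUSG00000004043.8, chr11:100720665-100746483, mm9) was at 17.3, 16.3 and 17.1 FPKM in *Gdpd3*+/+ libraries and 17.8, 16.6 and 20.6 in *Gdpd3*-/- libraries. The groups overlapped, and the 95% interval of the log2 fold change of 0.11 (SE 0.12) ran from -0.18 to 0.40 (adjusted p = 0.581). Its exons share 72 bases with *Stat3* on the opposite strand. Its neighbour on the same chromosome, *Stat5b* (ENSMUSG00000020919.5, chr11:100642045-100712038, mm9), was at 22.2, 23.0 and 23.9 FPKM against 27.0, 22.0 and 30.0. Library 6 was the lowest of all 6 and library 7 the highest, with a log2 fold change of 0.18 (SE 0.14, 95% interval -0.15 to 0.51; adjusted p = 0.468). *Stat5b* was the higher of the pair in all 6 libraries, with a *Stat5b* to *Stat5a* ratio of 1.36 ± 0.0704 in *Gdpd3*+/+ and 1.43 ± 0.0949 in *Gdpd3*-/- libraries (SD, n = 3 each; exact permutation test, two-sided p = 0.4).

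Among the feedback inhibitors, *Cish* encodes CIS, a classical STAT5 target that binds activated cytokine receptors, and *Socs3* encodes an inhibitor of JAK kinases that is induced by STAT3 and STAT5. STAT5 dimers bind the palindrome TTCNNNGAA, where N is any base. The motif reads the same on both strands, and it was searched in RefSeq windows of 250 bases before to 50 bases after each gene's start (GRCm38.p6). Windows were found for 8 of the 10 genes, 12 windows in all. *Cish* and *Socs3* were the genes with a match, and the stretches around the matches are shown because both genes are named outputs of STAT5; capitals mark the motif.
Cish: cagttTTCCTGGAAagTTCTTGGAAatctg
Socs3: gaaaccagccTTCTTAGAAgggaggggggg
The *Cish* stretch is chr9:107296654-107296683 on the plus strand, and its 2 matches begin at base 1 and base 12 counted from the start. In GENCODE M21 a longer *Cish* transcript begins upstream, so the matches lie after the start of that transcript. The *Socs3* stretch is chr11:117969501-117969530 on the minus strand, with its match from -154 to -146. At least 1 match was present in 8.30% of all 32851 windows (9.55% of 27025 genes), and 2 or more in 0.457% of windows. A match is a description of the letters and not a binding site; *Bcr*, *Abl1*, *Crkl*, *Stat5a*, *Stat5b* and *Pim1* had none in these windows.

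*Cish* (ENSMUSG00000032578.6, chr9:107198357-107205115, mm9), with the paired motif, was at 7.30, 6.47 and 7.54 FPKM in *Gdpd3*+/+ libraries and 8.55, 8.26 and 11.0 in *Gdpd3*-/- libraries. All *Gdpd3*-/- libraries were higher, library 7 most. The means of 7.10 ± 0.563 and 9.26 ± 1.50 FPKM (SD, n = 3 each) gave a log2 fold change of 0.37 (SE 0.17, 95% interval -0.03 to 0.77; adjusted p = 0.248). Opposite-strand transcripts Gm17040 and Gm17041 share 261 and 479 bases with its exons, and no strand setting was given in the sources used here.

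*Socs3* (ENSMUSG00000053113.3, chr11:117827393-117831361, mm9) had the largest log2 fold change of the 10 genes with all libraries fitted, close to that of *Bcr*, which was the larger without *Gdpd3*+/+ library 1 (0.96 against 0.72) or without *Gdpd3*-/- library 7 (1.17 against 0.82). *Socs3* was at 13.3, 20.8 and 17.6 FPKM in *Gdpd3*+/+ libraries and 43.1, 21.0 and 34.9 in *Gdpd3*-/- libraries. Libraries 5 and 7 were far above the *Gdpd3*+/+ range, while library 6 was within 1 FPKM of *Gdpd3*+/+ library 2. Means were 17.2 ± 3.81 and 33.0 ± 11.2 FPKM (SD, n = 3 each). The log2 fold change of 0.89 (SE 0.29) had a 95% interval of 0.19 to 1.60, the only one of the 10 that did not hold 0, yet the adjusted p was 0.145. The permutation p of 0.1 is the smallest that 3 against 3 libraries can give.

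*Socs2* (ENSMUSG00000020027.11, chr10:94847996-94879814, mm9) encodes an inhibitor of growth hormone receptor signalling. Its values were 3.11, 2.79 and 2.27 FPKM in *Gdpd3*+/+ libraries and 3.04, 3.23 and 3.40 in *Gdpd3*-/- libraries. *Gdpd3*+/+ library 1 lay above *Gdpd3*-/- library 5, so the groups overlapped, and the log2 fold change was 0.25 (SE 0.22, 95% interval -0.27 to 0.76; adjusted p = 0.514). The coefficient of variation of *Socs2* was 15.7% in *Gdpd3*+/+ and 5.65% in *Gdpd3*-/- libraries; in the other 9 genes it was larger in *Gdpd3*-/- libraries, as it was in 85.1% of genes with a mean of at least 1 FPKM.

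*Pim1* (ENSMUSG00000024014.6, chr17:29627757-29632390, mm9) encodes a serine/threonine kinase that promotes survival. It was at 17.3, 17.1 and 17.2 FPKM in *Gdpd3*+/+ libraries and 23.6, 14.6 and 18.3 in *Gdpd3*-/- libraries. The *Gdpd3*+/+ libraries were almost level, whereas library 5 was above and library 6 below them. The log2 fold change was 0.10 (SE 0.18, 95% interval -0.33 to 0.54; adjusted p = 0.745). An opposite-strand lincRNA, Gm16912, shares 468 of its 1972 exonic bases.

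*Osm* (ENSMUSG00000058755.3, chr11:4136423-4141029, mm9) encodes oncostatin M, a secreted cytokine of the interleukin-6 family. Levels were 8.91, 6.40 and 9.88 FPKM in *Gdpd3*+/+ libraries and 11.7, 5.32 and 11.1 in *Gdpd3*-/- libraries. *Gdpd3*-/- library 6 was the lowest of all and libraries 5 and 7 the highest. The log2 fold change was 0.10 with an SE of 0.34, and the 95% interval ran from -0.71 to 0.90 (adjusted p = 0.876), so neither a fall nor a rise of moderate size could be seen at this spread.

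**Figure D2:**
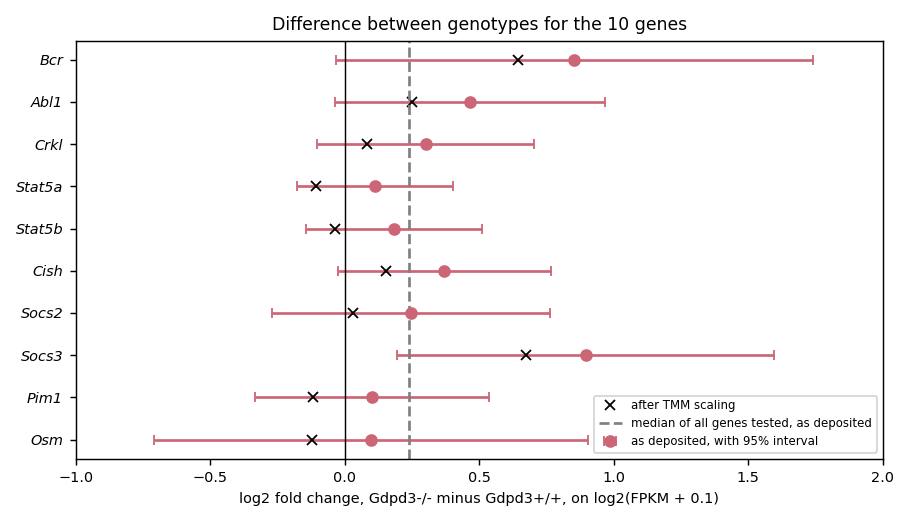
Log2 fold change of the 10 genes (*Gdpd3*-/- minus *Gdpd3*+/+, on log2(FPKM + 0.1)). Circles and bars are the estimate and its 95% interval for FPKM as deposited, crosses the estimate after TMM scaling, and the dashed line the median of all genes tested (0.24). The interval of *Socs3* alone lies above 0, and 4 crosses lie below 0.

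By level per length, the order of means in *Gdpd3*+/+ libraries was *Stat5b* (23.0 FPKM), *Socs3* (17.2), *Pim1* (17.2), *Stat5a* (16.9), *Crkl* (13.9), *Osm* (8.40), *Cish* (7.10), *Abl1* (3.33), *Socs2* (2.72) and *Bcr* (1.44). Neighbours whose ranges overlapped were *Socs3* and *Pim1*, *Pim1* and *Stat5a*, *Osm* and *Cish*, and *Abl1* and *Socs2*. In *Gdpd3*-/- libraries *Socs3* (33.0 FPKM) came before *Stat5b* (26.4), with overlapping ranges, and the other genes kept their order. There the neighbours that did not overlap were *Crkl* and *Osm*, *Cish* and *Abl1*, and *Abl1* and *Socs2*.

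Ratios within a library do not depend on its scaling to a total. Of 7 pairs compared, which were chosen after the values were seen, *Socs3* to *Stat5b* was the pair without overlap. This ratio was 0.598, 0.905 and 0.738 in *Gdpd3*+/+ libraries and 1.60, 0.954 and 1.16 in *Gdpd3*-/- libraries (exact permutation test, two-sided p = 0.1, adjusted over the 7 pairs p = 0.56). Library 6 was again nearest to the *Gdpd3*+/+ range. *Cish* to *Stat5b* was 0.329, 0.281 and 0.315 against 0.316, 0.375 and 0.366, with overlap (exact permutation p = 0.2). *Abl1* to *Bcr* was 2.10, 2.26 and 2.65 against 1.32, 1.32 and 3.04, with library 7 apart from libraries 5 and 6 (exact permutation p = 0.4).

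**Figure D3:**
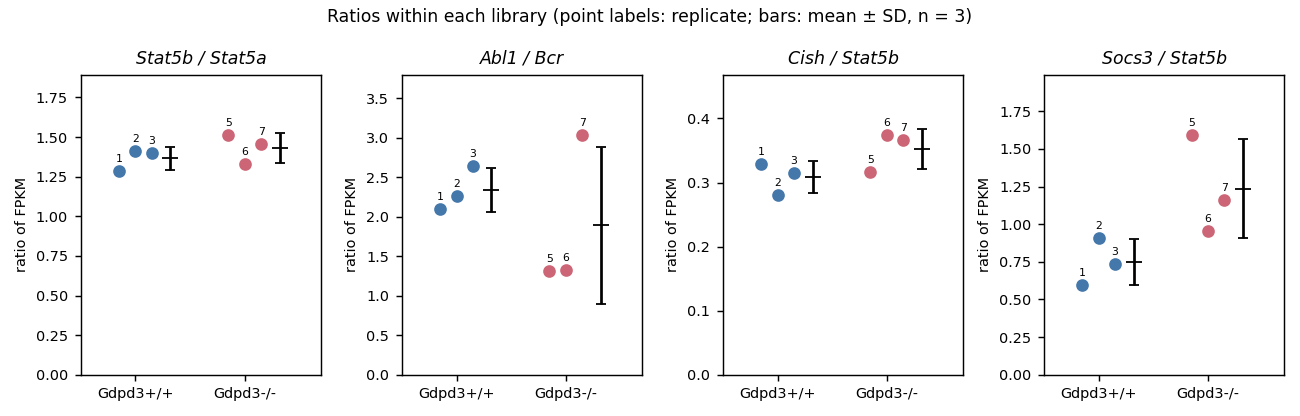
Ratio of FPKM within each library for 4 of the 7 pairs. Points are libraries numbered by replicate, bars are mean ± SD (n = 3), and each axis starts at 0. For *Abl1* to *Bcr*, *Gdpd3*-/- libraries 5 and 6 lie at 1.32 and library 7 at 3.04.

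The wider pathway was read from 6 lists, 59 genes, of which 58 were tested. Of 18 adaptors, kinases and phosphatases that bind BCR-ABL or act beside it, none passed in either direction (background 0.616% lower and 1.09% higher), and the median log2 fold change was -0.06. *Dok2*, an adaptor that restrains tyrosine kinase signalling, was at 20.2, 19.1 and 19.4 FPKM in *Gdpd3*+/+ and 30.7, 25.1 and 25.1 in *Gdpd3*-/- libraries. The groups were apart, with a log2 fold change of 0.46 (SE 0.12, adjusted p = 0.0956). *Abi1*, which encodes an ABL-interacting protein, was at 27.0, 23.0 and 24.8 FPKM against 13.9, 12.0 and 21.9. Library 7 lay just under the *Gdpd3*+/+ range, and the log2 fold change was -0.69 (SE 0.23, adjusted p = 0.148). *Inpp5d*, which encodes the inositol phosphatase SHIP1, had 0.28 (adjusted p = 0.3002), and *Grb2*, the adaptor gene that links BCR-ABL to RAS, also 0.28 (adjusted p = 0.160).

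Of 11 JAK kinases and their inhibitors, 1 rose and none fell (background 1.09% higher and 0.616% lower), with a median of 0.08. *Jak3*, the kinase of the common gamma chain receptors, was at 22.2, 22.4 and 19.2 FPKM in *Gdpd3*+/+ and 40.4, 33.6 and 39.4 in *Gdpd3*-/- libraries. The groups were far apart, with a log2 fold change of 0.83 (SE 0.12, adjusted p = 0.0362). The call was lost without any 1 of the *Gdpd3*+/+ libraries or without *Gdpd3*-/- library 5 (adjusted p from 0.0715 to 0.206, limma). It was also lost with TMM scaling (0.0588), quantile normalization (0.0530), array weights (0.0788) or no intensity trend (0.120). The call held with the other pseudocounts and filters, and without *Gdpd3*-/- library 6 or library 7. *Jak2*, outside the naming rule and picked after its values were seen, encodes a kinase that acts at cytokine receptors. It was at 25.2, 24.1 and 24.8 FPKM against 5.96, 17.3 and 20.4, lower in every *Gdpd3*-/- library but with a log2 fold change of -0.94 (SE 0.44) that did not pass (adjusted p = 0.261).

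None of the other 4 lists had a gene that passed. Of 5 other STAT genes, *Stat4* had a log2 fold change of 0.48 (adjusted p = 0.126). Of 5 other SOCS genes, *Socs7* was at 1.31 (adjusted p = 0.139) and *Socs1* at 0.46 (adjusted p = 0.122). In the list of 12 other STAT5 targets, the median was 0.35, and 5 were higher and 2 lower at an unadjusted p under 0.05, which 22.2% of all genes and 29.5% of those with a mean of at least 1 FPKM reached in either direction. The kinase gene *Pim3* came closest, at 10.8, 14.7 and 10.8 FPKM against 19.8, 20.7 and 20.8 (log2 fold change 0.76, adjusted p = 0.0630). The cell cycle inhibitor gene *Cdkn1a* had 0.83 (adjusted p = 0.108), the cyclin D1 gene *Ccnd1* 0.78 (adjusted p = 0.174) and the transcriptional inhibitor gene *Id1* -0.83 (adjusted p = 0.118). Among 7 tested genes of the oncostatin M receptors and related cytokines, *Clcf1* had 0.76 (adjusted p = 0.115).

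**Figure D4:**
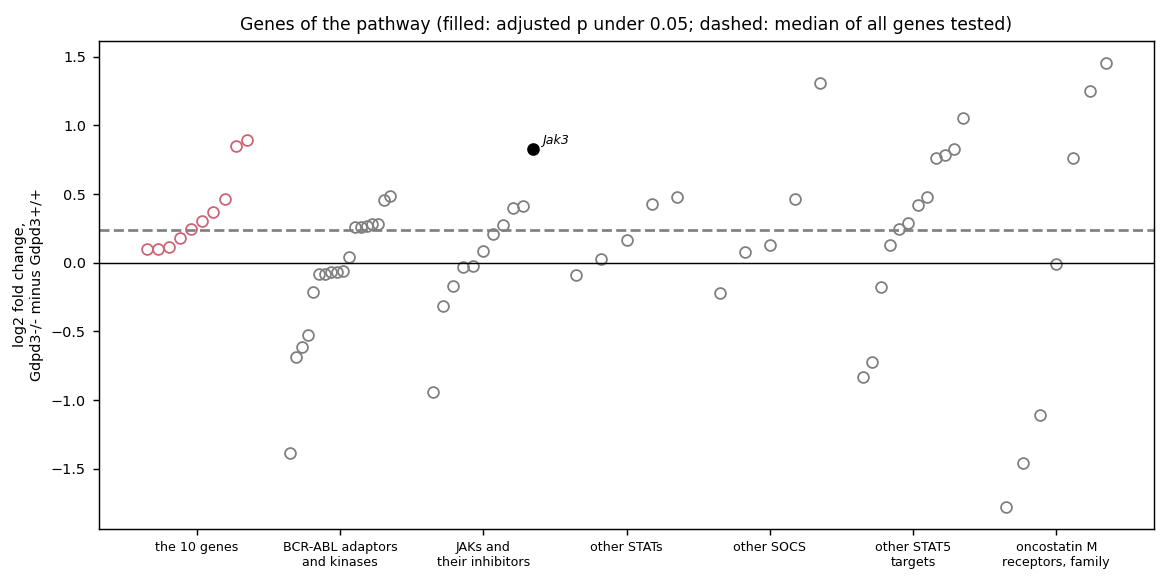
Log2 fold change (*Gdpd3*-/- minus *Gdpd3*+/+) of the 10 genes and of the genes of the 6 pathway lists, ordered within each list. A filled point passed at an adjusted p under 0.05 and the dashed line is the median of all genes tested (0.24). *Jak3*, at 0.83, is the filled point.

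*Socs3* had the largest positive statistic of the 10 genes, and no gene had a negative one. Over the 6 libraries, the genes whose log2 levels were most like those of *Socs3* were *Ptms* (r = 0.995), BC037032 (r = 0.994) and E030024N20Rik (r = 0.992). These are the highest of 15102 genes searched, 160 of which had r of at least 0.95, and all points share the same 6 libraries and their depths.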

How the data were processed

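RNA of 6 libraries was made into cDNA (SMART-Seq v4), fragmented (Nextera XT) and read as pairs of 150 bases. Per the labels, the authors trimmed reads (cutadapt 1.16 among the tools), aligned them with STAR 2.6.1a, counted with featureCounts 1.6.1 and used build mm9. The authors deposited FPKM per gene; in each library FPKM times length was a whole multiple of 1 step (within 0.01), which gave the depth. A second deposited table holds their own DESeq2 comparison (fold changes and p-values) and was not used.

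Genes with a mean of at least 0.05 FPKM were fitted on log2(FPKM + 0.1) with limma 3.58.1 (intensity trend, genotype only; R 4.3.3), and p-values were adjusted by Benjamini-Hochberg over all genes tested. This scale understates fold changes of low genes. No count test was run, as no counts were used here. For single ratios, exact permutation tests (both sides counted) went through 20 assignments (SciPy 1.17.1). Intervals are at 95%. The fit was tested on simulated data in which both groups had the *Gdpd3*+/+ spread. That test does not cover the wider spread of the *Gdpd3*-/- libraries or their lower depth. TMM was an unweighted version (30% of M and 5% of A trimmed at each end).

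The 10 genes and the lists were chosen with earlier results of these data known. An entry of the lists is not reported here. Named genes were the 10 genes, *Gdpd3*, and, of each list, genes with an adjusted p under 0.05 or else up to 4 with the largest change among those with a mean of at least 1 FPKM and no overlap; for the 10-gene member with the largest positive and negative statistic, the 3 genes most alike by Pearson's r. Gene positions are as deposited (mm9); promoter windows are from RefSeq (GRCm38.p6). Marker lists also covered monocyte genes (summed FPKM 1086 to 1335 in *Gdpd3*+/+ and 943 to 1255 in *Gdpd3*-/-), erythroid (2538 to 4060 and 1249 to 3835) and megakaryocyte genes (217 to 316 and 200.4 to 503). Further lists were basophil and mast cell (91.9 to 186 and 269 to 340), B and plasma cell (289 to 324 and 135 to 202) and T and NK cell genes (386 to 461 and 152 to 316). The list of genes sorted against ran from 141 to 173 and from 176 to 213. That last sum holds *Ptprc*, and so every form of CD45.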

Additional observations from a re-analysis of the deposited data

How the results depend on the processing

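No paired analysis was possible because the genotypes share no replicate number. Under all 15 alternatives, 0 of the 10 genes passed; the lowest adjusted p (limma) was 0.0589, for *Bcr* without *Gdpd3*-/- replicate 7. Of 150 alternative log2 fold changes of the 10 genes, 10 changed sign. With TMM scaling *Stat5a* was at -0.11, *Stat5b* at -0.038, *Pim1* at -0.12 and *Osm* at -0.12; with quantile normalization *Socs2* was at -0.032 and *Osm* at -0.0082. Without *Gdpd3*-/- replicate 5 *Pim1* was at -0.073 and *Osm* at -0.10, and *Osm* was at -0.065 without *Gdpd3*-/- replicate 7 and -0.084 without *Gdpd3*+/+ replicate 2; leaving out 1 library gave 0.57 to 1.17 for *Bcr*, 0.37 to 0.62 for *Abl1*, 0.14 to 0.40 for *Crkl*, 0.025 to 0.18 for *Stat5a*, 0.083 to 0.31 for *Stat5b*, 0.24 to 0.45 for *Cish*, 0.12 to 0.34 for *Socs2*, 0.67 to 1.19 for *Socs3*, -0.073 to 0.27 for *Pim1* and -0.10 to 0.46 for *Osm*. Of the 10 genes, 0 were without overlap between genotypes with TMM, 1 with quantile normalization and 5 to 9 with 1 library left out (9 without *Gdpd3*-/- replicate 6). With TMM, 14.1% of all genes were higher without overlap. No share of all genes was taken for quantile normalization or with a library left out. Groups of fewer libraries separate more easily, so the counts with a library left out have no background to be read against. The count of 422 called genes became 225 with a pseudocount of 1, 213 with no filter, 673 at a mean of at least 1 FPKM, 153 without the trend, 240 with array weights, and 0 to 3413 with 1 library left out: 0, 1 and 21 without *Gdpd3*+/+ replicates 1, 2 and 3, 187 without *Gdpd3*-/- replicate 5 and 3413 without replicate 7. Leaving out *Gdpd3*-/- replicates 5 and 6 together, chosen after seeing the data for their muscle RNA, gave 2294. The split was 270 higher and 152 lower as deposited, and 112 and 254 with TMM. The 1 called gene of the lists became 0 with TMM, quantile normalization, array weights or without the trend, 2 at a mean of at least 1 FPKM, 4 without *Gdpd3*-/- replicates 5 and 6, and 0 to 7 with 1 library left out. The cause of these shifts was not tested. The motif share of windows was 7.02% before the start only, where 1 of the 8 genes with windows had a match. With 4 free bases it was 6.95%, and 0 of the 8 had a match. *Bcr* had the fewest reads, 183 in *Gdpd3*-/- replicate 7, so its value there is the least precise.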
